A study of Mus musculus with 8 samples.

Results

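The transcripts of 7 genes of the complement and pentraxin systems were followed across the cell types of mouse bone and marrow stroma, and then compared between mice in which the SOXC genes Sox4, Sox11 and Sox12 were or were not targeted by a Cre of the osteoblast lineage. The genes were C1ra, C1s1, C4b, C3, Serping1, Clu and Ptx3, chosen by their symbols in the count matrices, where all 7 were found among 32285 genes. From these same libraries the study had already named Ptx3 among genes lower in mutant Lepr+ stromal cells and their close relatives. The values of Ptx3 below are therefore not independent of that report. Complement is a set of secreted proteins that mark and lyse microbes and damaged cells and that release fragments which attract and activate leukocytes. In its classical branch the protease C1r activates C1s, and C1s cuts C4 and C2, whose fragments form the enzyme that cuts C3, the component shared by all branches. Serping1 encodes the C1 inhibitor, which blocks C1r and C1s, and Clu encodes clusterin, a chaperone that keeps the terminal complex from inserting into membranes. Ptx3 encodes a long pentraxin, a soluble pattern recognition protein that binds C1q and is also built into hyaluronan-rich matrix. Mesenchymal cells of many tissues make several of these proteins, and marrow stromal cells marked by Lepr and Cxcl12 support blood formation and give rise to osteoblasts and adipocytes.

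Single-cell RNA-seq libraries were made from 8 female mice, 1 library per mouse, in 4 groups of 2: controls of 7 weeks, mutants of 7 weeks, controls of 13 weeks and mutants of 13 weeks. All 8 mice carried loxP-flanked alleles of the 3 SOXC genes on both chromosomes (Sox4fl/fl Sox11fl/fl Sox12fl/fl), and the mutants also carried OsxCre. OsxCre puts the recombinase under the osterix promoter, which drives it chiefly in osteoblasts and their precursors, and a tetracycline switch let the study keep it silent with doxycycline food until weaning age. Controls had no Cre, so the transgene itself and the loss of the SOXC genes cannot be told apart. Cells were released by Liberase and EDTA from femurs and tibiae freed of periosteum and flushed of marrow. Blood cells were removed with antibodies and magnetic beads, so the low shares of blood cells here were set by this depletion. The total UMI count of a library, a UMI being 1 tagged transcript molecule, was between 81894604 and 156090286. Between 6410 and 8753 cells per library were kept after the limits on quality and the removal of called doublets. Pairs of libraries shared between 30 and 63 barcodes, at most 0.498% of the smaller library.

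Of 59629 cells kept, 48198 fell into clusters that were named from marker genes, none of which was one of the 7 genes or of the other complement genes described here. The suffix "-like" marks such rebuilt names. The Lepr+ mesenchymal stem cell-like cells (Lepr+ MSC-like, 4145 cells) led on Lepr, Cxcl12 and Adipoq. The summed level of their 15 markers was between 27674 and 39169 CPM in controls, against between 95.3 and 161 CPM in OB-like cells. Next along the osteoblast lineage stood Lepr+ osteoprogenitor-like (Lepr+ OP-like, 2097 cells), preosteoblast-like (preOB-like, 2458 cells) and osteoblast-like cells (OB-like, 23613 cells), and Sca1+ MSC-like cells (605 cells) formed a second and small mesenchymal group. Levels are CPM, the UMI counts of a gene summed over the cells of one type in one mouse and divided by that sum's TMM-scaled total. They are given as mean ± SD over the 4 control mice unless stated otherwise. The counts come from the ends of transcripts and are not divided by gene length, so levels of different genes are not compared with each other.

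The targeted gene Sox4 was lower in mutants in the osteoblast lineage. In Lepr+ MSC-like cells it stood at 433 and 399.6 CPM in the controls and 203 and 157 CPM in the mutants of 7 weeks. The 13-week controls had 439.8 and 365 CPM and the mutants 158 and 152 CPM, with no overlap between genotypes. The difference passed the test (log2 fold change -1.29, SE 0.15, adjusted p = 0.00522; edgeR quasi-likelihood test over both ages, Benjamini-Hochberg adjusted over all genes of the cell type, as for every adjusted p below that names no other test). On the log2 scale it fell by 1.56 in OB-like, 1.41 in preOB-like and 1.37 in Lepr+ OP-like cells, with an adjusted p of at most 0.05 in each. In Sca1+ MSC-like cells Sox4 was not called (log2 fold change -0.95, SE 0.30, adjusted p = 0.232).

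The 7 genes lie on 5 chromosomes of the GRCm38 build that the counts use. C1ra (chr6:124512405-124523443, plus strand) and C1s1 (chr6:124530345-124542359, minus strand) are neighbours with 6901 bases between them. C4b (chr17:34728380-34743882) and C3 (chr17:57203970-57228136) lie on the minus strand of chromosome 17, Serping1 (chr2:84765387-84775444) on the minus strand of chromosome 2, and Clu (chr14:65968483-65981547) and Ptx3 (chr3:66219910-66225805) on the plus strand of chromosomes 14 and 3. All are protein coding, and Ptx3 lies inside Veph1, which is read from the other strand. Of the 7 genes, 3 have a near copy close by (C1rb, C1s2 and C4a), which shares 19.2% of 90-base windows in the last 1000 bases of the transcript with C1ra, 1.21% with C1s1 and 17.0% with C4b. Reads that fit both copies cannot be assigned, but the copies held only 13, 5 and 17 UMIs in Lepr+ MSC-like cells, against 6531 for C1ra, 7377 for C1s1 and 9853 for C4b.

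Promoter windows from 250 bases before to 50 bases after the start were taken from RefSeq (GRCm38.p6) for 4 of the 7 genes. Those of Ptx3, C1ra and C1s1 are shown because these genes are called below by the test without a replicate block. They were searched on both strands for SOX motifs (AACAAT and ACAAAG), the C/EBP site TTGCNNAA, the interferon-stimulated response element and the NF-kB site. None of these is part of another, and capitals mark the matches.
Ptx3, chr3:66219637-66219936, plus strand: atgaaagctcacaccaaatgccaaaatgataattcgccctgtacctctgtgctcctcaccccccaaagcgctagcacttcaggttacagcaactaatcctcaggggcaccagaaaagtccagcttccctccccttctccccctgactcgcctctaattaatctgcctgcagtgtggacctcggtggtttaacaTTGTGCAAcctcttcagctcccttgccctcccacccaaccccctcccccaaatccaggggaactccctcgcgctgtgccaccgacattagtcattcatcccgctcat
C1ra, chr6:124512371-124512670, plus strand: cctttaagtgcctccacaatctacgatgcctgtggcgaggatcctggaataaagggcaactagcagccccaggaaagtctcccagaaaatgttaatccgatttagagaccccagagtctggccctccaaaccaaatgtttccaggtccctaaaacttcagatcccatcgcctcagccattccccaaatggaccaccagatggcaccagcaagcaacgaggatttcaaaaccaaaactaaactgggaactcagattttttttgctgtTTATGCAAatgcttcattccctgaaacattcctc
C1s1, chr6:124542310-124542609, minus strand: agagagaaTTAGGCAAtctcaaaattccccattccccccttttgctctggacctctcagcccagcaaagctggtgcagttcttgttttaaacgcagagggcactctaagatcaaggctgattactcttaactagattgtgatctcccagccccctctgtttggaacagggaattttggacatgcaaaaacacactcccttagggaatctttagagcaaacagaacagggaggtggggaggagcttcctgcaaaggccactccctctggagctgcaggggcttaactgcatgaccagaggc
The match in Ptx3 is to TTGCNNAA on the other strand, from 57 to 50 bases before the start. C1ra holds TTGCNNAA on the other strand from 17 to 24 bases after its RefSeq start. That start differs from the gene start given above, chr6:124512405, and most of the C1ra window lies within the gene as placed there. The match in C1s1 is again to TTGCNNAA on the other strand, from 242 to 235 bases before the start. RefSeq gives C1s1 a further start, whose window (chr6:124542272-124542571) held no match. The C3 window also held TTGCNNAA. No window of these 4 genes held either SOX motif. Of 32851 promoter windows of the same length, 10.8% held TTGCNNAA, 10.7% AACAAT, 18.7% ACAAAG, 3.44% the interferon-stimulated response element and 0.411% the NF-kB site. So matches of this kind are common by letters alone, and they describe the sequence and not a bound site.

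Among the 15 named cell types of control mice, 6 of the 7 genes had their highest level in Lepr+ MSC-like cells. A cluster left unnamed for its low UMI counts held more Clu. The level of every one of the 7 fell step by step from Lepr+ MSC-like through Lepr+ OP-like and preOB-like to OB-like cells. That order held within each of the 8 mice for all 7 genes. For each gene the step from preOB-like to OB-like cells was the largest one, between 6.95-fold (C4b) and 34.6-fold (Ptx3). The first step, from Lepr+ MSC-like to Lepr+ OP-like cells, was between 2.30-fold and 4.58-fold. The middle step, from Lepr+ OP-like to preOB-like cells, was between 2.54-fold (Clu) and 7.12-fold (C3, whose last step was 9.40-fold). Cell types come from clustering the same cells, so these levels are a description and carry no test.

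**Figure D1:**
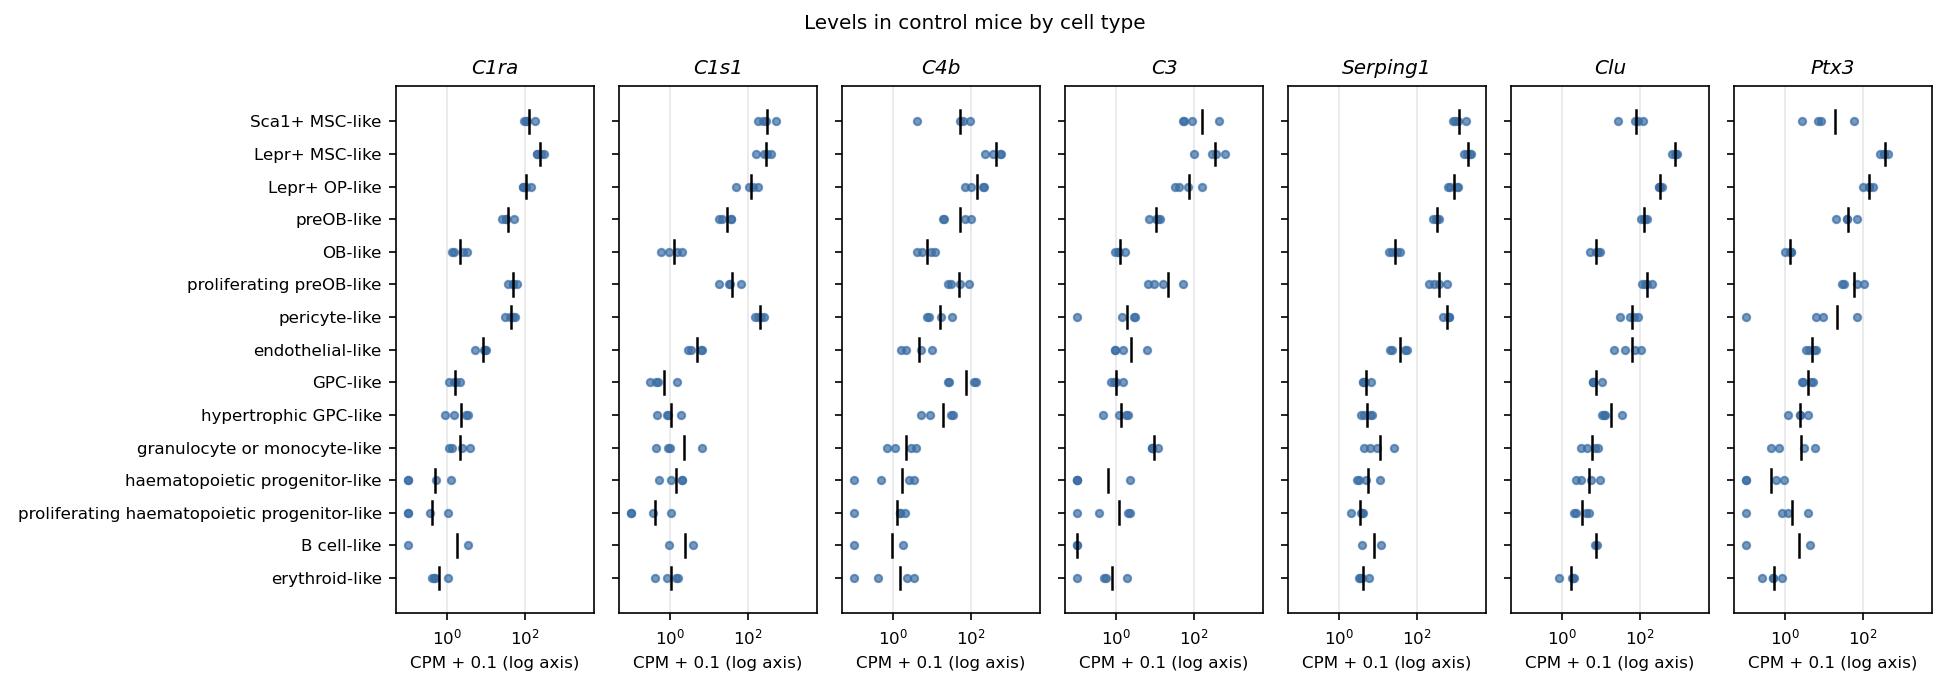
Levels of the 7 genes (CPM + 0.1, log axis) by cell type in control mice, with 1 point per mouse and a bar at the mean, for at most 4 mice per type. All genes fall from Lepr+ MSC-like to OB-like cells, C4b has a further high level in GPC-like cells, and C1s1 and Serping1 are also high in Sca1+ MSC-like and pericyte-like cells.

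The proteases C1ra and C1s1 were both found over the mesenchymal types, in different order. C1ra stood at 249 ± 50.2 CPM in Lepr+ MSC-like cells, above every other named type, and then at 125 ± 39.0 CPM in Sca1+ MSC-like and 107 ± 25.3 CPM in Lepr+ OP-like cells, which overlapped. It came to 44.6 ± 11.01 CPM in pericyte-like, 36.0 ± 11.4 CPM in preOB-like, 8.20 ± 2.02 CPM in endothelial-like and 2.07 ± 0.884 CPM in OB-like cells. C1s1 was the one gene of the 7 whose mean was highest in Sca1+ MSC-like cells, at 312 ± 153 CPM. The control mice ranged there from 185 to 534 CPM and overlapped with the range from 166 to 402 CPM in Lepr+ MSC-like cells. Its next levels were 204 ± 44.9 CPM in pericyte-like and 119 ± 54.4 CPM in Lepr+ OP-like cells, again with overlap. It fell to 28.6 ± 9.95 CPM in preOB-like and 1.16 ± 0.617 CPM in OB-like cells.

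C4b and C3, which code for the substrates of the cascade, differed in where else they were found. C4b stood at 433 ± 163 CPM in Lepr+ MSC-like and 147 ± 73.3 CPM in Lepr+ OP-like cells, whose ranges did not overlap. Growth plate chondrocyte-like cells (GPC-like) came next with 76.1 ± 57.7 CPM, overlapping with 54.0 ± 38.5 CPM in Sca1+ MSC-like and 52.2 ± 39.0 CPM in preOB-like cells, and held 15.3% of all C4b UMIs of control cells. C3 varied widely between mice, with 349 ± 217 CPM in Lepr+ MSC-like cells (from 104 to 625 CPM), 164 ± 195 CPM in Sca1+ MSC-like and 76.3 ± 57.5 CPM in Lepr+ OP-like cells, and neighbours in this order overlapped. Granulocyte or monocyte-like cells held 9.36 ± 1.90 CPM of C3, which overlapped with 10.7 ± 2.72 CPM in preOB-like cells.

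The 2 inhibitors followed different paths outside the Lepr+ cells. Serping1 stood at 2071 ± 388 CPM in Lepr+ MSC-like, 1215 ± 449.5 CPM in Sca1+ MSC-like, 901 ± 259.7 CPM in Lepr+ OP-like and 614 ± 93.3 CPM in pericyte-like cells, with overlap between neighbours. It then fell from 321 ± 51.4 CPM in preOB-like to 27.4 ± 8.22 CPM in OB-like cells, which did not overlap. Clu was sharper, at 818 ± 96.9 CPM in Lepr+ MSC-like, 335 ± 33.7 CPM in Lepr+ OP-like and 132 ± 20.8 CPM in preOB-like cells with no overlap among these 3. It was 10.5-fold lower in Sca1+ MSC-like than in Lepr+ MSC-like cells. Endothelial-like cells held 61.4 ± 37.3 CPM of Clu, which overlapped with 77.9 ± 38.0 CPM in Sca1+ MSC-like and 62.0 ± 25.1 CPM in pericyte-like cells.

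Ptx3 was the gene most unequal between the 2 mesenchymal stem cell-like groups. Its levels in the control mice were 355, 283, 454 and 358 CPM in Lepr+ MSC-like cells and 8.24, 6.99, 2.63 and 60.7 CPM in Sca1+ MSC-like cells. The groups did not overlap, and the means differed 18.4-fold, against 10.5-fold for Clu, 8.02-fold for C4b and 2.00-fold for C1ra. The fold for Ptx3 depended on replicate 2 of the 13-week controls, which gave 20 of the 24 Ptx3 UMIs in Sca1+ MSC-like cells. It was 61.2-fold without that mouse and between 13.1-fold and 16.3-fold without any one of the others, and remained the largest of the 7 genes each time. Lepr+ OP-like cells held 142 ± 33.3 CPM and preOB-like cells 42.5 ± 21.7 CPM of Ptx3, without overlap. Its level of 1.23 ± 0.203 CPM in OB-like cells was 0.339% of that in Lepr+ MSC-like cells.

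Lepr+ MSC-like cells were 7.30% of the control cells kept and held between 49.8% (Clu) and 77.1% (C3) of the UMIs of each gene. After each cell had been thinned to 2000 UMIs, 92.0% ± 3.31 (SD, n = 4) of control Lepr+ MSC-like cells had a UMI of Serping1, 72.9% ± 4.62 of Clu, 53.4% ± 13.6 of C4b, 41.9% ± 9.16 of C1s1, 39.3% ± 2.22 of Ptx3, 38.2% ± 5.92 of C1ra and 34.4% ± 15.4 of C3. Erythroid-like cells, which should not make these proteins, give the level of free RNA, with a thinned share of between 0 and 1.03% over the 7 genes. Without thinning the shares in Lepr+ MSC-like cells were between 52.5% (C3) and 96.0% (Serping1) at a median of 5264 UMIs per cell, and erythroid-like cells had a median of 32332. In OB-like cells the thinned share was 5.57% ± 1.47 for Serping1, 1.74% ± 0.608 for Clu and 1.57% ± 0.845 for C4b, against 1.03, 0.438 and 0.140% in erythroid-like cells, with overlap for Clu (from 1.05% in OB-like and up to 1.19% in erythroid-like cells) and none for Serping1 and C4b. The levels of all 3 were higher in OB-like than in erythroid-like cells without overlap. Levels of Serping1 overlapped with granulocyte or monocyte-like cells (27.4 ± 8.22 CPM in OB-like and 11.3 ± 9.72 CPM), as did those of Clu (7.62 ± 1.88 CPM and 5.77 ± 2.49 CPM). Those of C4b did not (from 3.96 CPM in OB-like and up to 3.82 CPM). Serping1 and Clu are therefore not read as above free RNA in OB-like cells. For Ptx3 the thinned share was 0.254% ± 0.106 in OB-like and 0.298% ± 0.595 in erythroid-like cells, which overlapped, as did the shares of C1ra (0.484% ± 0.267 and 0.368% ± 0.564). By level, Ptx3 (1.23 ± 0.203 CPM in OB-like and 0.417 ± 0.242 CPM in erythroid-like cells) and C1ra (2.07 ± 0.884 CPM and 0.510 ± 0.315 CPM) were higher in OB-like cells without overlap, so no order is read from their shares. Both levels overlapped with those of granulocyte or monocyte-like cells (2.43 ± 2.50 CPM for Ptx3 and 2.08 ± 1.27 CPM for C1ra). Neither is therefore read as above free RNA in OB-like cells. In mutants the thinned share of Ptx3 was 0.109% ± 0.0280 in OB-like and 0.176% ± 0.352 in erythroid-like cells. C1s1 and C3 had thinned shares of 0.211% ± 0.216 and 0.202% ± 0.0339 in OB-like cells against 0 in erythroid-like cells, but the unthinned shares had the other order (1.84% and 2.74% for C1s1, 1.70% and 1.88% for C3). Thinning takes more UMIs from the deeper erythroid-like cells than from OB-like cells, whose median was 12964. The levels of both genes overlapped between these types, at 1.16 ± 0.617 CPM and 0.980 ± 0.549 CPM for C1s1 and 1.14 ± 0.296 CPM and 0.677 ± 0.810 CPM for C3, so neither is read as above free RNA in OB-like cells. As a share of its own level in Lepr+ MSC-like cells, the level in OB-like cells was between 0.326% (C3) and 1.73% (C4b), and that in erythroid-like cells between 0.115% (Ptx3) and 0.344% (C1s1).

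Across the 15 named cell types, each gene was compared with 10048 others by Pearson's r of log2(CPM + 1) of the control means, over genes that reached 20 CPM in at least one type. The closest were Pappa, Il7 and Marc1 for Ptx3 (r = 0.985, 0.978 and 0.977), Rarres2, Ebf2 and Naalad2 for C1s1 (0.983, 0.979 and 0.977), Egfr, Igfbp5 and Fbn1 for C1ra (0.984, 0.982 and 0.980), and Rarres2, Igfbp5 and Nfatc4 for Serping1 (0.983, 0.975 and 0.974). For Clu they were Tns3, Vcam1 and Gas6 (0.976, 0.973 and 0.971), for C3 Ptgfr, Eya2 and Col6a5 (0.979, 0.964 and 0.963), and for C4b Tln2, Rspo3 and Islr (0.963, 0.957 and 0.957). Among the 7 genes themselves r ran from 0.710 (C1s1 and C4b) to 0.986 (C1ra and Serping1). These are descriptions over types that share libraries and, for the osteoblast lineage, a continuous path.

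Mutants were compared with controls in the 5 mesenchymal and osteoblastic types, which gives 35 pairs of gene and type. All 35 passed the filter on low counts. Over both ages 2 of the 35 were called at an adjusted p of at most 0.05, both lower in mutant OB-like cells. That stands beside 0.759% of all 52588 pairs of gene and type tested. An unadjusted p under 0.05 was found for 14 of the 35. Over all genes it was found for 551 of 5539 in Sca1+ MSC-like, 761 of 11559 in Lepr+ MSC-like and 843 of 10445 in Lepr+ OP-like cells. In preOB-like cells it was found for 958 of 10579 and in OB-like cells for 1675 of 14466. C4b stood in OB-like cells at 5.33 and 3.96 CPM in the controls and 2.81 and 2.41 CPM in the mutants of 7 weeks. At 13 weeks it was at 11.6 and 9.18 CPM in controls and at 5.85 and 6.40 CPM in mutants. At each age both mutants lay below both controls, while the 13-week mutants lay above the 7-week controls (log2 fold change -0.80, SE 0.14, adjusted p = 0.0213). Ptx3 was at 0.930 and 1.28 CPM in the controls and 0.432 and 0.524 CPM in the mutants of 7 weeks. The older mice had 1.36 and 1.35 CPM as controls and 0.560 and 0.755 CPM as mutants, with all 4 mutants below all 4 controls (log2 fold change -1.13, SE 0.21, adjusted p = 0.0331), from 213 UMIs in control and 104 in mutant cells, at a low level set beside that of erythroid-like cells above. In OB-like cells 1.5% of 14466 genes were called in this comparison. The level of Ptx3 in Lepr+ MSC-like cells, from which free RNA could come, was also below that of controls in mutants of the same age, and its part in the OB-like value was not tested. The summed markers of Lepr+ MSC-like cells in OB-like cells ranged from 95.3 to 161 CPM in controls and from 93.4 to 150.1 CPM in mutants. At 13 weeks they did not overlap (152 to 161 CPM in controls and 121 to 150.1 CPM in mutants), and over both ages 6 of 15 had a positive log2 fold change, with a median of -0.21 and 0 called. The OB-like clusters include one led by interferon genes, in which C4b was at 14.5 CPM against 5.54 CPM in the other OB-like cells. That cluster held between 1.96% and 4.43% of OB-like cells per mouse. In OB-like cells 1 of 12 interferon genes had a positive log2 fold change over both ages, with a median of -0.19 and 0 called. The part of these lists in the falls was not tested, and both calls held without that cluster. The call for C4b was lost without any one of 5 libraries, which were replicate 1 of the 7-week controls, replicate 2 of the 7-week mutants, replicate 1 of the 13-week controls and either 13-week mutant (adjusted p from 0.0516 to 0.0936, log2 fold change from -0.83 to -0.68). That for Ptx3 was lost without any library but replicate 1 of the 7-week controls (adjusted p from 0.0591 to 0.167).

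The log2 fold changes of the other 5 genes in OB-like cells were positive. C1ra was at 1.26 and 1.42 CPM in the controls and 2.38 and 2.14 CPM in the mutants of 7 weeks. Values at 13 weeks were 2.50 and 3.11 CPM in controls and 4.46 and 3.69 CPM in mutants, so that at each age both mutants were above both controls (log2 fold change 0.66, SE 0.15, adjusted p = 0.0627). This also held for C3 (1.14 ± 0.296 CPM in controls and 1.94 ± 0.418 CPM in mutants; log2 fold change 0.78, SE 0.21, adjusted p = 0.115). Clu showed the same order (7.62 ± 1.88 CPM and 11.4 ± 3.78 CPM; log2 fold change 0.58, SE 0.19, adjusted p = 0.231). None of the 3 passed the test. With same-numbered mice of 1 age set as a block, all 3 were called higher in mutant OB-like cells, and also without a filter on low counts. The changes were, for C1ra, 0.67 (SE 0.14, adjusted p = 0.0192), for C3, 0.79 (SE 0.16, adjusted p = 0.0142) and, for Clu, 0.56 (SE 0.10, adjusted p = 0.00612) on the log2 scale. Under the block 8 of the 35 pairs were called, beside 4.04% of all pairs and 9.51% of genes in OB-like cells. Serping1 (0.15) and C1s1 (0.23) were not called with or without the block. The level of C3 in OB-like cells, with a thinned share of 0.202% ± 0.0339 of control cells, rested on 198 UMIs in controls and 383 in mutants and overlapped in controls with that of erythroid-like cells. The levels of C1ra and Clu in OB-like cells overlapped in controls with those of granulocyte or monocyte-like cells. Summed Sca1+ MSC markers moved with genotype in OB-like cells, from 77.7 to 102 CPM in controls and from 125 to 144 CPM in mutants at 7 weeks, and from 49.6 to 50.6 CPM and from 56.6 to 111 CPM at 13 weeks, without overlap at either age (1 of 12 tested called higher). Summed dissociation genes were between 5966 and 6044 CPM in controls and between 7031 and 7097 CPM in mutants at 7 weeks, and overlapped at 13 weeks (0 of 11 called). Summed osteoblast markers overlapped at 7 weeks and at 13 weeks were between 109652 and 133251 CPM in controls and between 143652 and 213205 CPM in mutants (0 of 15 called). The part of these lists in the values was not tested.

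**Figure D2:**
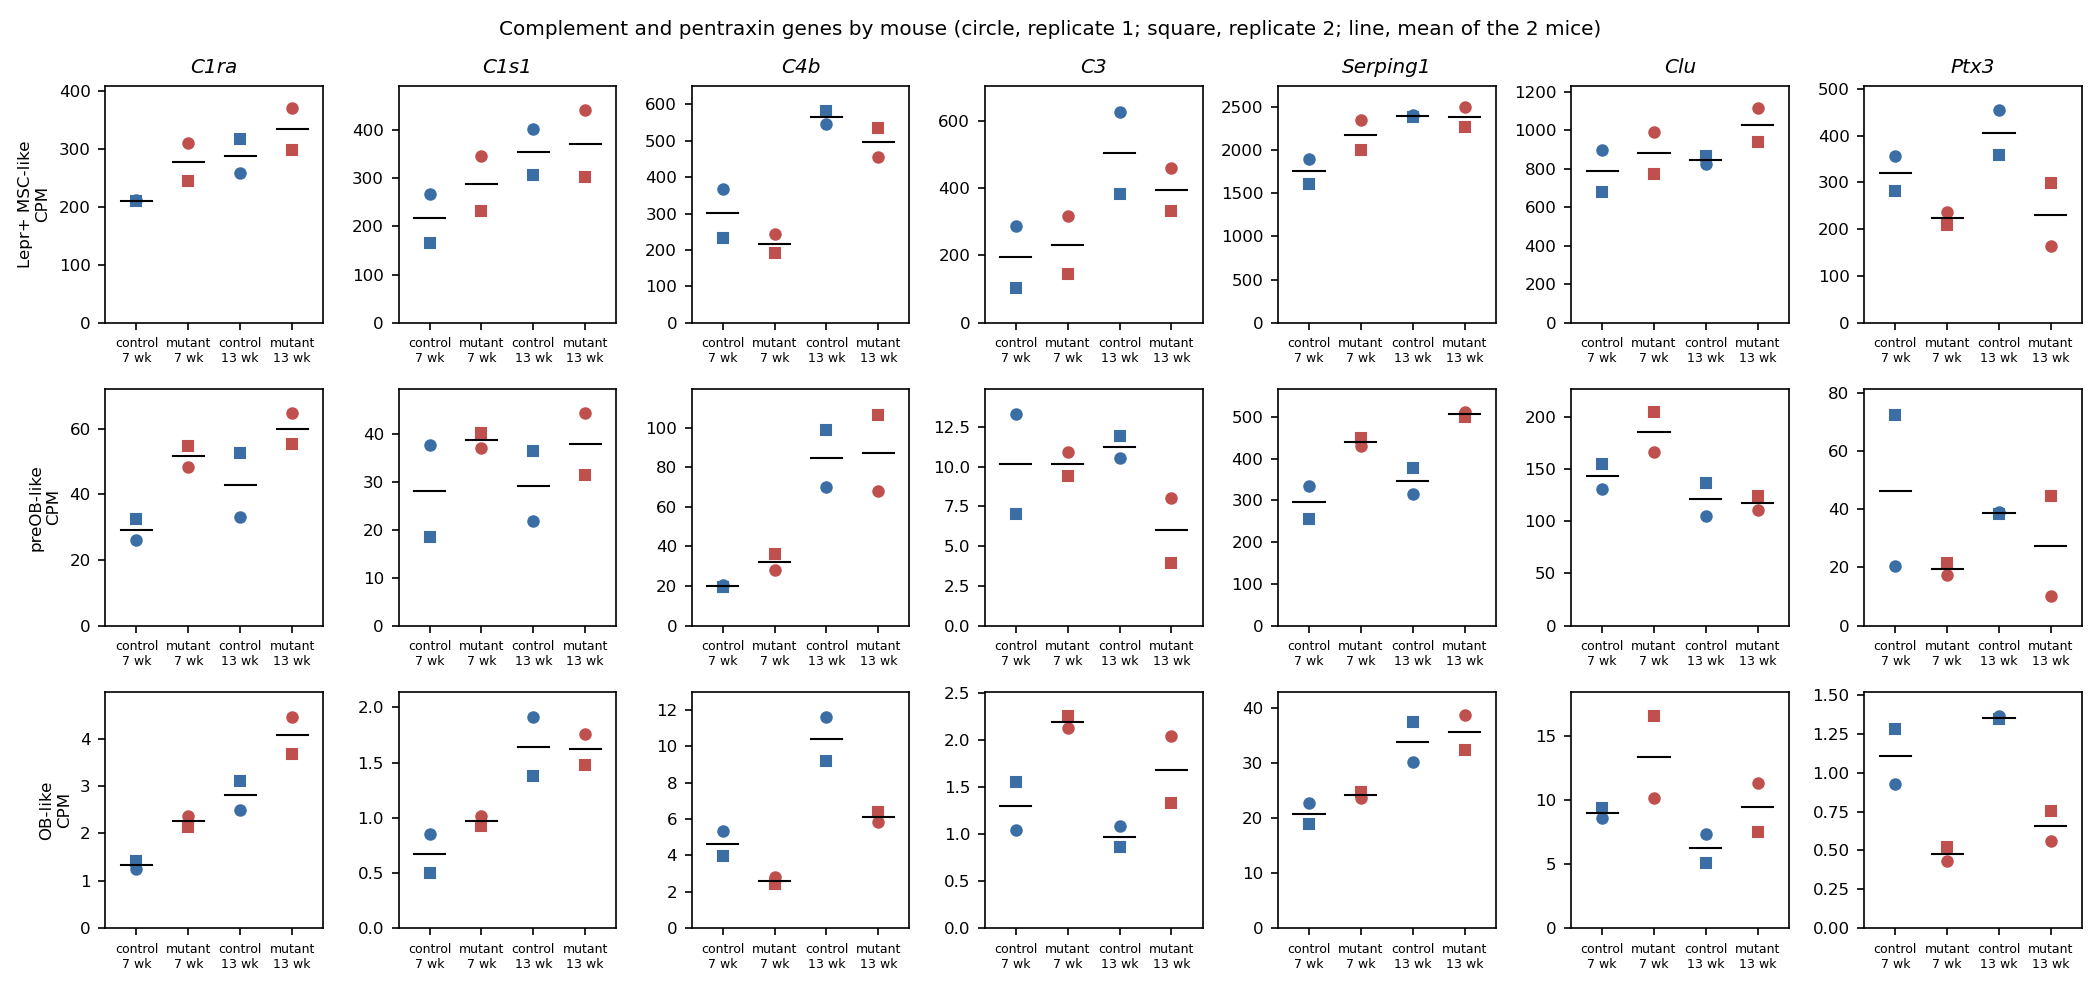
Levels (CPM, linear axes from 0) of the 7 genes in Lepr+ MSC-like, preOB-like and OB-like cells of each mouse, with controls in blue and mutants in red, a circle for replicate 1 and a square for replicate 2, and a line at the mean of the 2 mice. In OB-like cells C4b and Ptx3 lie lower in the mutants at each age, and C4b lies higher at 13 than at 7 weeks in all 3 types.

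In Lepr+ MSC-like cells, where the genes stood highest, none of the 7 was called over both ages by edgeR, DESeq2 or under the block, in a type where 0.182% of 11559 genes were called. Ptx3 came nearest. It stood at 355 and 283 CPM in the controls and 238 and 209 CPM in the mutants of 7 weeks. The 13-week controls had 454 and 358 CPM and the mutants 164 and 298 CPM, and at each age both mutants were below both controls (log2 fold change -0.66, SE 0.19, adjusted p = 0.329; unadjusted p = 0.00408). Without a filter on low counts it was called (-0.67, adjusted p = 0.00749). The control level was 362 ± 70.3 CPM and the mutant level 227 ± 56.1 CPM. The log2 fold changes of the other 6 genes lay between -0.33 (C4b) and 0.31 (C1ra). That of C3 (-0.061, SE 0.31) changed its sign when replicate 1 of the 7-week or 13-week controls or replicate 2 of the 7-week or 13-week mutants was left out (0.05 to 0.41), and its SD among control mice was 217 CPM around a mean of 349 CPM. The median over the 7 genes was 0.15 and that over all genes -0.0063. A further 4 lists moved with genotype in these cells. Summed osteoblast markers were between 4936 and 5830.4 CPM in controls and between 6465 and 7158 CPM in mutants at 7 weeks, without overlap, and overlapped at 13 weeks, and 1 of 15 was called lower over both ages. Summed macrophage markers ranged from 10.7 to 19.6 CPM in controls and from 19.8 to 22.7 CPM in mutants, without overlap (0 of 3 tested called). All 11 dissociation genes, a sign of the digestion, had positive log2 fold changes, and their sums were 14786 and 15284 CPM in the controls and 18676 and 19361 CPM in the mutants of 13 weeks, with overlap at 7 weeks. All 12 interferon genes had negative ones (median -0.56), and none of the 11 or the 12 was called. Their part in these values was not tested.

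Lepr+ OP-like cells showed no member called either, beside 0.584% of 10445 genes. Ptx3 stood at 98.5 and 179.7 CPM in the controls and 78.6 and 106 CPM in the mutants of 7 weeks. At 13 weeks it was at 143 and 147 CPM in controls and at 57.4 and 138 CPM in mutants (log2 fold change -0.57, SE 0.24, adjusted p = 0.525), with overlap at 7 weeks. Under the block it was called (-0.58, SE 0.14, adjusted p = 0.0136), beside 3.26% of genes of this type. For C3, the 7-week controls had 42.8 and 33.1 CPM and the mutants 59.1 and 42.8 CPM, which overlapped. The 13-week controls had 159 and 69.8 CPM and both mutants less, 58.2 and 36.6 CPM (log2 fold change -1.26, SE 0.34, adjusted p = 0.308). The difference between the genotype effects at the 2 ages was -1.66 (SE 0.48, adjusted p = 1.000) without and -1.65 (SE 0.26, adjusted p = 0.0127) with the block. Without replicate 1 of the 13-week controls, the higher of the pair, the log2 fold change over both ages moved from -0.43 to -0.083 (adjusted p = 0.979). Summed dissociation genes were between 9315 and 12619 CPM in control and between 14930 and 15514 CPM in mutant Lepr+ OP-like cells at 7 weeks, without overlap, and overlapped at 13 weeks (10 of 11 with a positive log2 fold change, 0 called). Summed Lepr+ MSC markers did not overlap at 7 weeks either (7427 to 7628 CPM in controls and 8462 to 10423 CPM in mutants; 0 of 15 called over both ages). Summed osteoblast markers did not overlap at 13 weeks (6437 to 6534 CPM in controls and 6985 to 9384 CPM in mutants; 0 of 15 called over both ages). Their part in these values was not tested.

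In preOB-like cells C1ra and Serping1 stood higher in mutants without passing the test. Serping1 was at 336 and 255 CPM in the controls and 431 and 449.7 CPM in the mutants of 7 weeks. The older mice had 315 and 378 CPM as controls and 513 and 499.8 CPM as mutants, and all 4 mutants were above all 4 controls (log2 fold change 0.56, SE 0.16, adjusted p = 0.184). C1ra was at 26.0 and 32.4 CPM in the controls and 48.4 and 54.7 CPM in the mutants of 7 weeks. Values at 13 weeks were 33.1 and 52.5 CPM in controls and 64.9 and 55.2 CPM in mutants, where at each age both mutants were above both controls (log2 fold change 0.67, SE 0.18, adjusted p = 0.134). Both were called under the block, Serping1 by 0.57 (SE 0.13, adjusted p = 0.0399) and C1ra by 0.69 (SE 0.15, adjusted p = 0.0286), beside 2.34% of genes of this type, and C1ra was also called without a filter on low counts. Summed dissociation genes moved with genotype in the same cells, from 7317 to 9974 CPM in controls and from 10190.1 to 12524 CPM in mutants without overlap (0 of 11 called). Summed osteoblast markers were between 13742 and 16864 CPM in controls and between 19593 and 27355 CPM in mutants at 13 weeks, without overlap, and overlapped at 7 weeks (9065 to 11402 and 11181 to 19867 CPM; 0 of 15 called). Summed Sca1+ MSC markers did not overlap at 7 weeks (2058 to 2106 CPM in controls and 2662 to 2735 CPM in mutants; 0 of 7 tested called), and both genes stood higher in Sca1+ MSC-like than in preOB-like cells. Their part in these values was not tested. In this type 0.756% of 10579 genes were called over both ages without the block. Ptx3 ranged from 20.3 to 72.3 CPM in controls and from 10.2 to 44.7 CPM in mutants (log2 fold change -0.89, SE 0.39, adjusted p = 0.509). Its log2 fold change ran from -1.58 to -0.32 over the alternatives, and without a filter on low counts it was called (adjusted p = 6.20e-04). The log2 fold changes of C4b (0.36) and C3 (-0.44) had the other sign when the libraries were clustered without integration.

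Sca1+ MSC-like cells, of which each mouse gave few, were the one type in which the median over the 7 genes was below 0 (-1.11, against 0.0045 over all genes), but no member was called beside 0.361% of 5539 genes. Serping1 was at 865 and 1160.1 CPM in the controls and 638 and 626 CPM in the mutants of 7 weeks. The 13-week controls had 1864 and 972 CPM and the mutants 454 and 495 CPM, with all 4 mutants below all 4 controls (log2 fold change -1.14, SE 0.26, adjusted p = 0.0942). DESeq2 called it (adjusted p = 0.0192). Without a filter on low counts 5 of the 7 were called in this type, beside 1.86% of 16118 genes. These were C1s1 (adjusted p = 0.0474), C3 (0.0169), C4b (4.87e-04) and Serping1 (0.0256), all lower in mutants, and Clu (5.53e-04), which was higher. C1s1 was at 185 and 287 CPM in the controls and 158 and 91.5 CPM in the mutants of 7 weeks. At 13 weeks it was at 534 and 243 CPM in controls and at 161 and 166 CPM in mutants, again without overlap (log2 fold change -1.11, SE 0.31, adjusted p = 0.157). Ptx3 had the other sign here than in the 4 types of the osteoblast lineage, at 8.24 and 6.99 CPM in the controls and 33.8 and 17.2 CPM in the mutants of 7 weeks. The older mice had 2.63 and 60.7 CPM as controls and 41.3 and 23.7 CPM as mutants (log2 fold change 0.86, SE 0.75, adjusted p = 0.809). It rested on 24 UMIs in control and 80 in mutant cells, overlapped, and stayed positive under all 17 alternatives (0.38 to 2.58). Single libraries decided other values in this type. The mean of Clu in mutants rested on 1058 CPM in replicate 2 of the 13-week mutants, against 30.02 to 168 CPM in the other 3. That of C3 rested on 620.5 CPM in replicate 1 of the 13-week mutants, against 0 to 10.2 CPM in the other 3. Without replicate 1 of the 13-week mutants, C3 was called lower (-4.07, adjusted p = 0.00958) and Clu higher (1.80, adjusted p = 0.0438). Leaving out replicate 2 of them, C4b was called lower (-3.29, adjusted p = 0.0183). Without replicate 2 of the 13-week controls Serping1 (-1.32, adjusted p = 0.0128) and C1s1 (-1.31, adjusted p = 0.027) were called lower. Marker lists moved with genotype here. Of the 15 markers of Sca1+ MSC themselves, 4 had a positive log2 fold change and 1 was called lower (median -1.35), while their sums overlapped (16011 to 35031 CPM in controls and 17584 to 31590.4 CPM in mutants). Summed dissociation genes were at 4116 and 4649 CPM in the controls and at 6133 and 7952 CPM in the mutants of 13 weeks, with overlap at 7 weeks (0 of 10 tested called). The summed osteoblast markers ranged from 3287 to 11650 CPM in control and from 9894 to 56978 CPM in mutant Sca1+ MSC-like cells (0 of 15 called). Those of Lepr+ MSC ranged from 1212 to 3452 and from 576 to 1565 CPM (2 of 8 tested called lower). Of the interferon genes, 1 of 11 was called lower with a median of -2.01 on the log2 scale. Their part in these values was not tested.

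**Figure D3:**
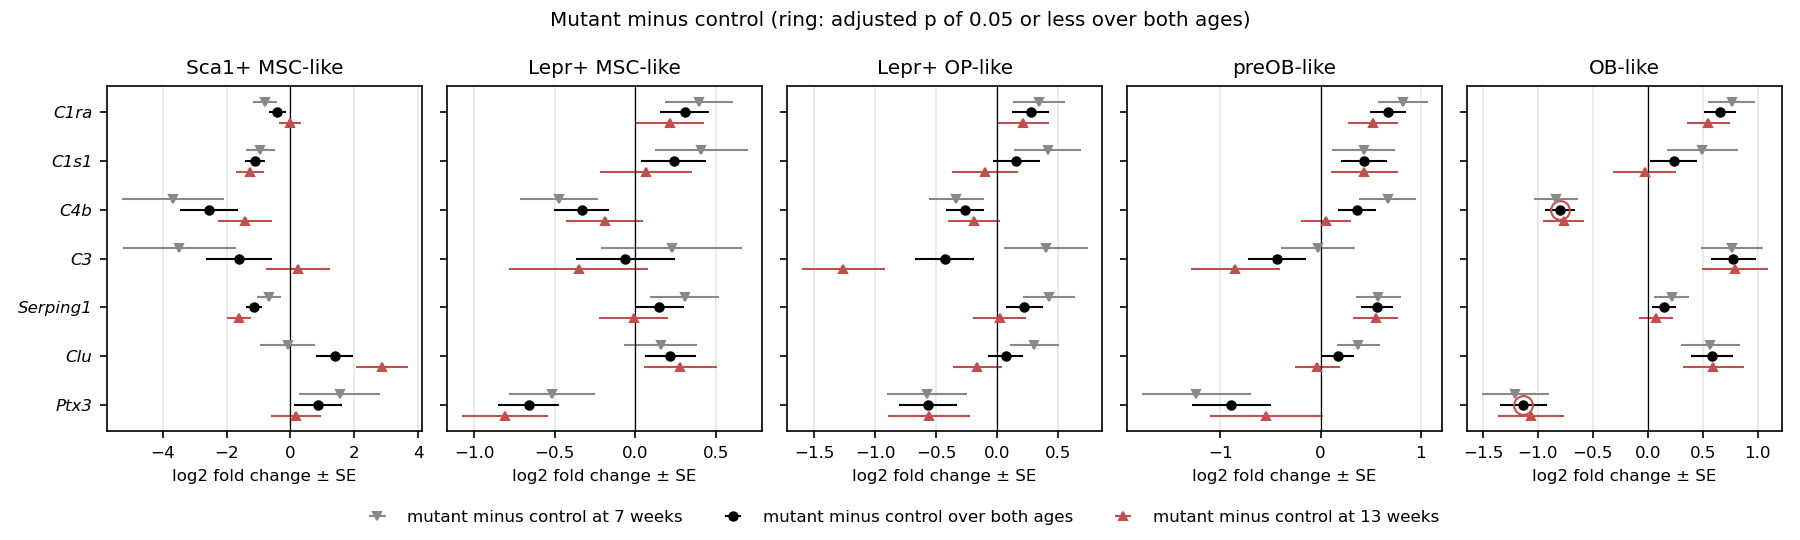
Log2 fold change of the 7 genes, mutant minus control, with its SE from edgeR (4 mutant and 4 control mice over both ages, 2 and 2 at each age), by cell type. Rings mark the 2 pairs called over both ages, C4b and Ptx3 in OB-like cells, and the horizontal scale differs between panels.

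Taken by age, none of the 35 pairs was called by edgeR at 7 weeks, beside 0.0742% of all pairs, and none at 13 weeks, beside 0.15%, while 9 and 10 of them had an unadjusted p under 0.05. DESeq2 called none at 7 weeks and 1 at 13 weeks, Serping1 in Sca1+ MSC-like cells. Under the block C4b in OB-like cells was called at 7 weeks (-0.83, SE 0.16, adjusted p = 0.0259), beside 1.02% of all pairs. It was called again at 13 weeks (-0.77, SE 0.14, adjusted p = 0.0170), together with Clu in OB-like (0.60, SE 0.14, adjusted p = 0.0479) and C3 in Lepr+ OP-like cells (-1.22, SE 0.18, adjusted p = 2.63e-04), beside 1.6%. The difference of the genotype effect between ages was called for none of the 35 without the block, beside 0% of all pairs, and for none by DESeq2. An unadjusted p under 0.05 was found for 2 of 35, and over all genes for 284, 181, 250, 224 and 173 in the same order of types. With the block the difference was called for 1, C3 in Lepr+ OP-like cells, beside 0.00761%.

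The calls by age were all higher at 13 weeks. Age cannot be told apart from the day of preparation in this design, here and in the age comparisons below. Of the 35 pairs, 7 were called in the comparison of 13 with 7 weeks over both genotypes, beside 1.35% of all pairs, and the block could not be used because a pair of mice belongs to 1 age. C4b rose in all 4 types of the osteoblast lineage. In Lepr+ MSC-like cells it was at 369, 233, 243 and 191 CPM at 7 weeks and 547, 583, 457 and 535 CPM at 13 weeks, in the order control, control, mutant, mutant, with no overlap between ages (log2 fold change 1.05, SE 0.17, adjusted p = 0.0353). In Lepr+ OP-like cells it was at 98.5, 71.4, 61.4 and 74.5 CPM at 7 weeks and 219, 201, 169.7 and 199 CPM at 13 weeks (log2 fold change 1.36, SE 0.16, adjusted p = 6.01e-04). Values in preOB-like cells were 20.3, 19.7, 28.2 and 36.3 CPM at 7 weeks and 69.9, 98.9, 68.1 and 106 CPM at 13 weeks (log2 fold change 1.75, SE 0.19, adjusted p = 2.54e-04). All 4 older mice were above all 4 younger ones in each. In OB-like cells the rise was 1.19 (SE 0.14, adjusted p = 0.00500) on the log2 scale. The summed Lepr+ MSC markers were also higher in Lepr+ OP-like cells, between 7427 and 10423 CPM at 7 weeks and between 11351 and 14343 CPM at 13 weeks. They overlapped between ages in Lepr+ MSC-like cells (27674 to 37362 and 34629 to 40677 CPM), while the summed Sca1+ MSC markers in preOB-like cells were between 2058 and 2735 CPM at 7 weeks and between 526 and 1009 CPM at 13 weeks, without overlap. Summed endothelial markers were lower at 13 weeks without overlap in all 4 types, from 46.2 to 91.0 CPM at 7 weeks and from 23.5 to 39.8 CPM at 13 weeks in Lepr+ MSC-like, from 37.7 to 64.4 and from 9.98 to 21.8 CPM in Lepr+ OP-like, from 22.9 to 55.0 and from 10.7 to 18.6 CPM in preOB-like, and from 12.7 to 18.0 and from 6.40 to 8.71 CPM in OB-like cells. The part of these lists in the values was not tested. The shares of all genes called in these 4 types were 0.294%, 0.728%, 2.74% and 2.14%. The call in Lepr+ MSC-like cells was lost without replicate 2 of the 7-week controls, of the 7-week mutants or of the 13-week mutants, or without replicate 1 of the 13-week controls (adjusted p from 0.0508 to 0.15, log2 fold change from 0.90 to 1.07). That in Lepr+ OP-like cells was lost with a limit of 5% mitochondrial UMIs (0.90, adjusted p = 0.14).

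A further 3 genes were higher at 13 weeks in OB-like cells. C1ra was at 1.26, 1.42, 2.38 and 2.14 CPM at 7 weeks and 2.50, 3.11, 4.46 and 3.69 CPM at 13 weeks (log2 fold change 0.96, SE 0.15, adjusted p = 0.0129). Serping1 stood at 22.8, 19.0, 23.8 and 24.8 CPM at 7 weeks and 30.2, 37.5, 38.9 and 32.4 CPM at 13 weeks (log2 fold change 0.62, SE 0.11, adjusted p = 0.0227). C1s1 rose by 1.00 (SE 0.22, adjusted p = 0.0489) on the log2 scale, at a level that was 0.407% of that in Lepr+ MSC-like cells, against 0.344% in erythroid-like cells. In all 3 the 4 older mice were above the 4 younger ones. As given above, none of the 3 is read as above free RNA in OB-like cells of control mice. The C1s1 call was lost without any library but replicate 1 of the 7-week controls (adjusted p from 0.0517 to 0.168). It was also lost with a limit of 5% mitochondrial UMIs (0.0725), with the clusters of few UMIs kept (0.0522) and without the interferon-led cluster (0.0588). That of Serping1 was lost without any one of 5 libraries (replicate 2 of the 7-week controls, either 7-week mutant, replicate 2 of the 13-week controls and replicate 1 of the 13-week mutants; 0.0623 to 0.0914), and that of C1ra without replicate 1 of the 13-week mutants (0.0589). The summed Lepr+ MSC markers in OB-like cells were between 93.4 and 107.9 CPM at 7 weeks and between 121 and 160.9 CPM at 13 weeks, without overlap, and their part in these values, that of C4b included, was not tested.

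**Figure D4:**
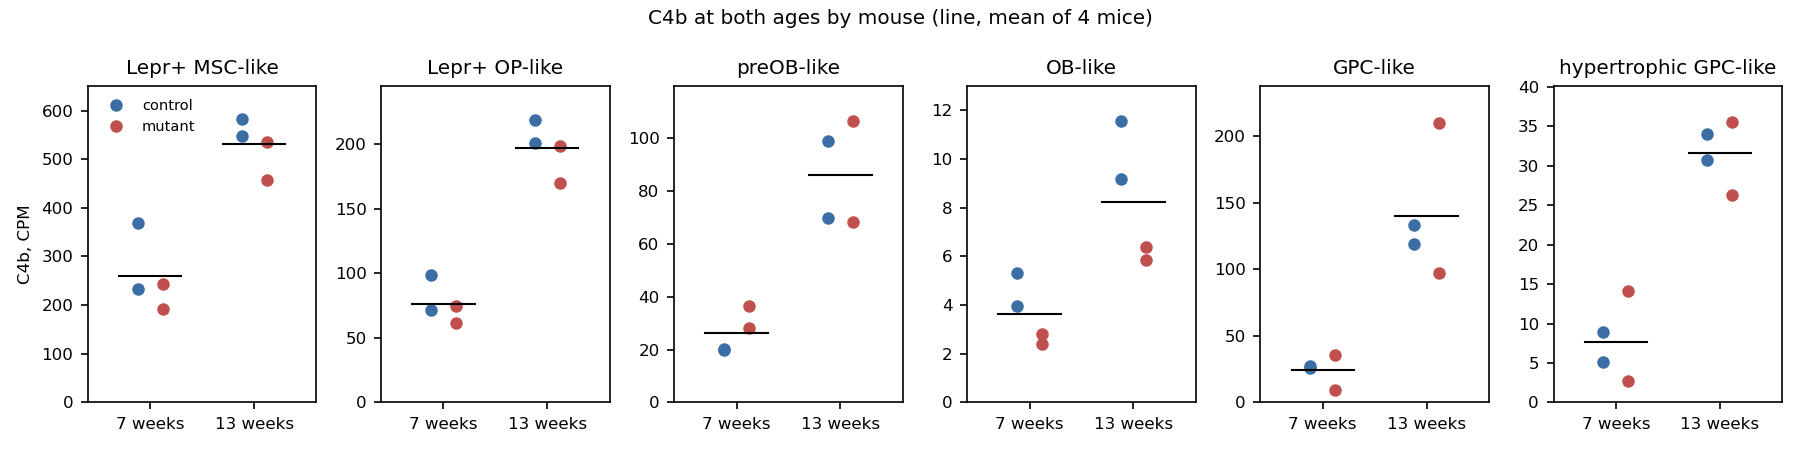
C4b (CPM, linear axes from 0) at 7 and 13 weeks in 6 cell types, with 1 point per mouse (controls in blue, mutants in red) and a line at the mean of 4 mice. All 4 mice of 13 weeks lie above all 4 mice of 7 weeks in each of the 6 types.

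C4b was also higher at 13 weeks outside the osteoblast lineage. In GPC-like cells C4b was at 27.1, 25.8, 35.9 and 9.37 CPM at 7 weeks and 133, 119, 97.5 and 210.1 CPM at 13 weeks (log2 fold change 2.43, SE 0.30, adjusted p = 0.00138; 3.74% of genes called). In hypertrophic GPC-like cells it rose by 1.94 (SE 0.30, adjusted p = 0.00172) on the log2 scale (7.73% of genes called). In endothelial-like cells, where 3.13% of genes were called, C4b was not among the called genes but Serping1 (log2 fold change 1.13, SE 0.21, adjusted p = 0.0121) and Clu (log2 fold change 1.505, SE 0.26, adjusted p = 0.00711) were higher at 13 weeks. That type pools clusters with unlike levels of Clu (13.6, 174 and 131 CPM over all mice) and Serping1 (15.4, 42.4 and 346 CPM). The part of their mix was not tested. The alternatives were run only for the 5 mesenchymal and osteoblastic types. The age calls in GPC-like, hypertrophic GPC-like and endothelial-like cells therefore have no such check. C3 was not called in any of the 5 mesenchymal and osteoblastic types (1.06, SE 0.31, adjusted p = 0.286 in Lepr+ MSC-like cells, where all 4 older mice were above all 4 younger ones) by the test with a filter on low counts. Without that filter on low counts it was called in Lepr+ MSC-like, Lepr+ OP-like and Sca1+ MSC-like cells. It was also called in Lepr+ OP-like cells without replicate 2 of the 13-week controls and in Sca1+ MSC-like cells without replicate 2 of the 13-week mutants. Clu had negative values in preOB-like (-0.45, SE 0.16, adjusted p = 0.195) and OB-like cells (-0.50, SE 0.19, adjusted p = 0.263). It was called in preOB-like cells without integration, and in OB-like and Sca1+ MSC-like cells without a filter on low counts.

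The rest of the pathway was described by 49 further genes in 6 lists, of which only some are transcribed in these cells. Over both ages 7 of 75 pairs of gene and type tested were called, 6 higher and 1 lower in mutants, beside the 0.759% over all pairs given above. Of the classical and lectin branch (17 genes) 3 of 19 pairs were called, all higher and all C2, the protease that C1s cuts. C2 stood in preOB-like cells at 24.1 and 13.6 CPM in the controls and 53.3 and 46.3 CPM in the mutants of 7 weeks. Values at 13 weeks were 23.3 and 22.6 CPM in controls and 64.3 and 40.1 CPM in mutants (log2 fold change 1.28, SE 0.20, adjusted p = 0.0108), and the groups did not overlap. It was also higher in Lepr+ OP-like cells (41.6 ± 19.8 CPM in controls and 85.0 ± 13.99 CPM in mutants; log2 fold change 1.10, SE 0.19, adjusted p = 0.0123). In OB-like cells it was higher over both ages (3.20 ± 1.16 CPM and 7.36 ± 2.10 CPM; log2 fold change 1.24, SE 0.13, adjusted p = 0.00189), and also at 7 weeks (1.36, SE 0.19, adjusted p = 0.0296) and at 13 weeks (1.11, SE 0.18, adjusted p = 0.0408) alone. Of the same list, the scavenger receptor Colec12 stood at 452 ± 61.8 CPM in Lepr+ OP-like cells.

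Of the alternative branch (5 genes) 2 of 13 pairs were called, both Cfb, factor B, the alternative counterpart of C2. Cfb was higher in mutant preOB-like cells, at 2.22 and 0.438 CPM in the controls and 4.64 and 8.46 CPM in the mutants of 7 weeks. The 13-week controls had 5.09 and 7.30 CPM and the mutants 18.8 and 17.1 CPM (log2 fold change 1.83, SE 0.37, adjusted p = 0.0343), with overlap between 7-week mutants and 13-week controls. These levels are low and were not set beside free RNA. The control mean of Cfb was 129 CPM in Sca1+ MSC-like and 103 CPM in Lepr+ MSC-like cells. The Sca1+ MSC markers and other lists that moved with genotype in preOB-like cells are given above. Their part in the Cfb and C2 values there was not tested. In Sca1+ MSC-like cells Cfb was lower, at 61.8 and 105 CPM in the controls and 15.01 and 13.3 CPM in the mutants of 7 weeks. At 13 weeks it was at 192 and 158 CPM in controls and at 19.4 and 13.6 CPM in mutants, with no overlap (log2 fold change -2.92, SE 0.30, adjusted p = 0.00344), also at 13 weeks alone (-3.31, SE 0.39, adjusted p = 0.00649). Summed interferon genes in Sca1+ MSC-like cells ranged from 1534 to 2824 CPM in controls and from 176 to 1343 CPM in mutants, without overlap. Other lists that moved with genotype in this type are given above. The part of all these lists in the Cfb value was not tested. C2 and Cfb lie 85 bases apart on the minus strand of chromosome 17 (chr17:34862604-34898265 and chr17:34856374-34862518), and the gene model Gm20547 overlaps both on the same strand, so reads of that model cannot be assigned.

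Of the terminal list (7 genes) 1 of 5 pairs was called and of the inhibitors (7 genes) 1 of 20, both higher in mutant Lepr+ OP-like cells. C6, a component of the membrane attack complex, was at 23.5 and 29.3 CPM in the controls and 54.1 and 79.0 CPM in the mutants of 7 weeks. The older mice had 25.6 and 45.0 CPM as controls and 52.4 and 85.8 CPM as mutants, without overlap (log2 fold change 1.15, SE 0.22, adjusted p = 0.0172). Cd55, a membrane protein that dissociates the C3-cleaving enzymes, was at 4.21 and 11.5 CPM in the controls and 27.3 and 23.6 CPM in the mutants of 7 weeks. Values at 13 weeks were 11.3 and 18.5 CPM in controls and 29.1 and 29.1 CPM in mutants, again without overlap (log2 fold change 1.38, SE 0.26, adjusted p = 0.0193). Under the block C2, C6 and Cd55 were called higher in Lepr+ MSC-like cells as well (1.28, 1.02 and 0.96 on the log2 scale), among 16 of the 75 pairs called. The Lepr+ MSC markers and dissociation genes that moved with genotype in Lepr+ OP-like cells at 7 weeks are given above, and C6 (94.6 ± 17.6 CPM), C2 and Cd55 stood higher in control Lepr+ MSC-like than in control Lepr+ OP-like cells. The part of these lists in the C6, Cd55 and C2 values was not tested. None of 5 pairs of receptors and none of 13 pairs of other pentraxins and the PTX3 partner Tnfaip6 was called by edgeR without the block. Under the block Tnfaip6 was called lower in mutant Lepr+ OP-like (-0.58, SE 0.14, adjusted p = 0.0176) and preOB-like cells (-0.65, SE 0.15, adjusted p = 0.0393). Tnfaip6, whose product links PTX3 to hyaluronan, stood at 99.2 ± 11.9 CPM in Lepr+ MSC-like cells. The inhibitors Cd59a and Cr1l stood at 149 ± 11.99 CPM in OB-like and 122 ± 14.01 CPM in endothelial-like cells. The receptors C5ar2 and Itgam reached 16.9 ± 10.2 CPM in endothelial-like and 13.9 ± 7.43 CPM (2 mice) in B cell-like cells. C8g and Nptxr reached 2.84 ± 2.57 CPM and 24.2 ± 4.58 CPM in proliferating preOB-like cells. Single libraries carry several of these calls. C2 in Lepr+ OP-like cells was lost without replicate 1 of the 7-week mutants or replicate 2 of the 13-week controls (adjusted p = 0.0514 and 0.0588), and C6 was lost without replicate 1 of either control group or replicate 2 of either mutant group (0.0517 to 0.106). Cd55 was lost without replicate 1 of the 7-week controls, replicate 1 of the 7-week mutants or either 13-week mutant (0.0544 to 0.0959), and Cfb in preOB-like cells was lost without replicate 2 of the 7-week controls or mutants, replicate 1 of the 13-week controls or either 13-week mutant (0.073 to 0.147). C2 in OB-like and Cfb in Sca1+ MSC-like cells kept their calls without any one library. The low level of C2 in OB-like cells was not set beside free RNA, and its control mean in Lepr+ MSC-like cells was 74.7 CPM. With a limit of 5% mitochondrial UMIs C2 in preOB-like (adjusted p = 0.236), Cd55 in Lepr+ OP-like (0.339) and Cfb in preOB-like cells (0.329) were lost. Cfb in preOB-like cells was also lost with doublets kept (0.119) and without integration (0.351).

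By age, 9 of the 75 pairs were called, 5 higher and 4 lower at 13 weeks, beside 1.35% of all pairs. Among all genes of a type, the share called by age was 0.294% (Lepr+ MSC-like), 2.74% (preOB-like) and 2.14% (OB-like). Cfb was higher in Lepr+ MSC-like (1.56, SE 0.21, adjusted p = 0.0136), preOB-like (1.75, SE 0.37, adjusted p = 0.0205) and OB-like cells (1.10, SE 0.21, adjusted p = 0.0333), C2 in OB-like cells (0.78, SE 0.13, adjusted p = 0.0172), and Cfd, the protease that cuts factor B and a known adipocyte product, in Lepr+ MSC-like cells. Tnfaip6 was lower in preOB-like and OB-like cells, and Cd55 (-1.50, SE 0.19, adjusted p = 0.00755) and Cd59b were lower in OB-like cells.

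**Figure D5:**
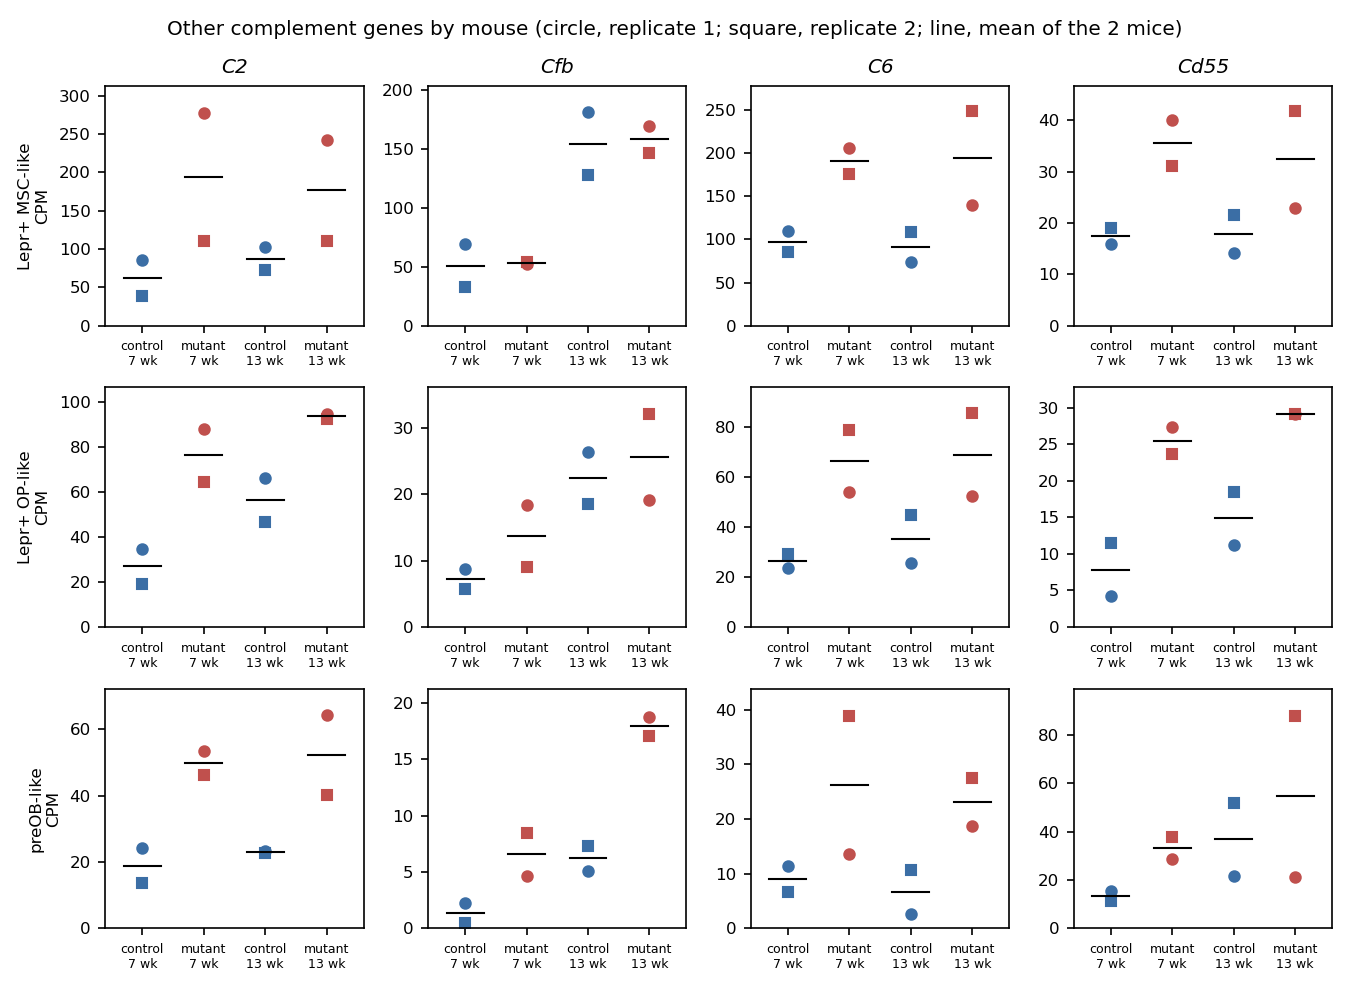
Levels (CPM, linear axes from 0) of C2, Cfb, C6 and Cd55 of each mouse, by row in Lepr+ MSC-like, Lepr+ OP-like and then preOB-like cells, with controls in blue and mutants in red, a circle for replicate 1 and a square for replicate 2, and a line at the mean of the 2 mice. C2, C6 and Cd55 lie higher in the mutants of Lepr+ OP-like cells at each age, and Cfb in preOB-like cells.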

How the data were processed

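Count matrices of 8 libraries, 1 per mouse, were used as deposited. The values are UMI counts per gene and barcode that the authors made with Cell Ranger 6.1.2 on the mm10 build, before their own filters in Seurat 4.3; they are not normalized. The labels and the study's methods name different sequencers. Barcodes with 200 to 6000 genes and at most 10% mitochondrial UMIs were kept, and doublets were called by each cell's share of simulated doublets among its neighbours, at 0.8% per 1000 barcodes (9.67% to 11.3% of cells per library). Libraries were integrated with Seurat 5.3.0 by reciprocal principal components (2000 variable genes, without the 7 genes, the 49 pathway genes and the SOXC genes; 30 components, 5 anchor neighbours), and clustered with leidenalg 0.10.2 at resolution 1 on a graph of 20 neighbours. Clusters were named where at least 3 markers were raised 2-fold and found in 10% of their cells; 11396 cells of clusters with a median UMI count too far below that of their library were left out. Osteoprogenitors and preosteoblasts fell into 1 cluster of 4555 cells, which was split on a graph of its own at resolution 0.1, a step settled after the clusters had been seen.

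UMI counts were summed per mouse and type (at least 10 cells) and tested with edgeR 4.0.16 (TMM scaling, filterByExpr, quasi-likelihood test, 4 group means, 4 residual degrees of freedom), Benjamini-Hochberg adjusted over all genes of a type, with a threshold of 0.05. The code was tested on simulated data. Mice are separate animals with 1 library each, so p-values measure the spread between animals together with that of preparation and library. Shares of cells with a UMI were taken after thinning each cell to 2000 UMIs; shares and levels have no counting interval, since the spread between mice is given. The named genes were the 7 genes, Sox4, the pathway genes called by genotype, the 2 with the highest control level in each of 6 lists, and the 3 genes most like each of the 7; Cfd, Cd59b and the age calls of Tnfaip6 were named after their values were seen. Results for 1 gene so named and 1 motif are not reported here. The 7 genes and all lists were chosen with earlier results of these data known.

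Deviations from group means of mice with the same age and replicate number correlated between 0.148 and 0.418 in the 4 types of the osteoblast lineage, where the numbers were taken as pairs, and between 0.0168 and 0.0945 in Sca1+ MSC-like cells, where they were not. In the study the mice of a pair were sisters or littermates, but the labels do not say that a number marks a litter, and replicate 1 was the more deeply sequenced library of every group. The replicate block left 2 residual degrees of freedom. The alternatives were this block, DESeq2 1.42.0, RLE scaling, plain CPM, no filter on low counts, each mouse left out, a limit of 5% mitochondrial UMIs, doublets kept, resolution 1.5, no integration, no thinning and, added after the clusters had been seen, few-UMI clusters kept and an interferon-led OB-like cluster left out. Leaving out control mice for the folds between the 2 mesenchymal stem cell-like types was chosen after the values had been seen.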

Additional observations from a re-analysis of the deposited data

Results flagged for a closer look

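The genotype effect on C3 in Lepr+ OP-like cells differed between ages when same-numbered mice of 1 age were set as a block. The effect at 13 weeks minus that at 7 weeks was -1.65 on the log2 scale (edgeR quasi-likelihood test with the block, adjusted p = 0.0127), and without the block it was -1.66 with an adjusted p of 1.00. The controls of 13 weeks stood at 159 and 69.8 CPM and the mutants at 58.2 and 36.6 CPM, while the 7-week mice of both genotypes ranged from 33.1 to 59.1 CPM.

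Clu showed a signal in cells that no comparison used. A cluster of 742 cells, kept out of the named types for its low median UMI count and led by the platelet genes Pf4, Clec1b and Ppbp, held Clu at 1378 CPM over the 8 mice, with a range from 618 to 1835 CPM and a median of 1396 CPM. Its 7745 Clu UMIs were 17.1% of all Clu UMIs of the cells kept, and none of the other 6 genes exceeded 11.7 CPM there. The median of its cells was 1204 UMIs and the mean 7577. A minority of 139 cells with at least 10000 UMIs held 80.3% of its UMIs and 78.8% of its Clu UMIs, and Clu stood at 1351 CPM in these and at 1485 CPM in the other cells.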

How the results depend on the processing

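The libraries number 2 per group, and the block leaves 2 residual degrees of freedom. In OB-like cells of control mice the levels of C1s1 and C3 overlap with the free RNA of erythroid-like cells. Those of Ptx3, C1ra, Serping1 and Clu lie above erythroid-like cells without overlap, but overlap with granulocyte or monocyte-like cells. Only C4b lies above both without overlap. With the replicate block, 8 in place of 2 of the 35 pairs were called over both ages, 1 in place of 0 at 7 weeks, 3 in place of 0 at 13 weeks and 1 in place of 0 for the difference between ages. These stand beside 4.04%, 1.02%, 1.6% and 0.00761% of all pairs under the block. Of the pathway pairs 16 in place of 7 were called over both ages. The pairs called by both kept their direction (C4b -0.80 and Ptx3 -1.13 in OB-like cells with the block). No paired value exists for the comparison of ages. Without a filter on low counts, 13 pairs were called over both ages, 4 at 7 weeks, 5 at 13 weeks, 3 for the difference, 14 by age and 15 among pathway genes, beside 1.81%, 0.657%, 1.09%, 0.116% and 2.29% of all gene and type pairs in these 5 comparisons. DESeq2 called 3 over both ages, 1 at 13 weeks, 8 by age (Serping1 in Lepr+ OP-like cells added) and 9 pathway pairs (C6 in Lepr+ MSC-like and preOB-like cells added), beside 1.21%, 0.477% and 1.59% of all pairs over both ages, at 13 weeks and by age. With doublets kept or without integration 1 was called over both ages, Ptx3 in OB-like cells being lost (-0.89, adjusted p = 0.0965, and -0.90, adjusted p = 0.123, by edgeR). In these 2 settings 0.696% and 0.842% of all pairs were called. With 5% mitochondrial UMIs 4 pathway pairs were called, beside 0.558% of all pairs. Leaving out 1 mouse leaves 1 mouse in a group. Over all alternatives, these included, the log2 fold change in OB-like cells ran from -0.89 to -0.68 for C4b and from -1.25 to -0.89 for Ptx3. The mean share of Lepr+ MSC-like cells with a UMI over all 8 mice had a median over the 7 genes of 43.7% thinned and 72.0% unthinned.

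Signs turned only where no call stood: for C1s1 in Lepr+ OP-like cells at 5% mitochondrial UMIs (-0.13) and without replicate 2 of the 7-week controls (-0.044; -0.044 to 0.49 over the mice left out), for C3 in Lepr+ MSC-like cells at 5% (0.10) and without 1 of 4 mice (-0.41 to 0.41 over the mice left out), and without integration for C3 (0.14) and C4b (-0.50) in preOB-like cells. The cause was not tested. Over all results and alternatives 858 values kept direction and side of the threshold, 55 lost a call, 23 gained one and 9 changed sign.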

Other observations

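In the OB-like cluster led by interferon genes (686 cells), Serping1 stood at 76.4 CPM and C4b at 14.5 CPM, against 26.6 and 5.54 CPM in the other OB-like cells, while Ptx3 stood at 0.353 and 0.872 CPM. Cells were pooled over mice for these values, so they carry no test.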
